A study of Mus musculus with 16 samples.

Results

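Culture sets L and I are 2 sets of mouse embryonic fibroblast lines, named by the letter that opens each column of the deposited count table. The comparison used all 16 of the 16 libraries, 8 of set L and 8 of set I. Each set held 1 wildtype line (Zac+/+) and 1 mutant line (Zac+/-), and each line was harvested at days 2, 8, 10 and 12 in vitro. All 4 lines came from C57BL/6 embryos at embryonic day 13.5 and were grown in DMEM with 10% fetal bovine serum. Day 2 cells are called proliferative in the labels and those of days 8, 10 and 12 quiescent. The labels give the letter as part of a line's name, and neither what the letters stand for nor the litter or date behind them was given in the sources used here. The title code of the mutant lines, KOpat, was not expanded. Litter, dissection and handling therefore cannot be told apart from the set.

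Fibroblast cultures made from whole or dissected embryos hold mesenchymal cells of several body regions. Such cells keep marks of their origin in culture, among them the homeobox genes of the body axes, and can hold cells able to form cartilage, bone, muscle or fat. When growth stops at high density, the cells lay down collagens, proteoglycans and other matrix proteins. In cartilage formation the transcription factors Sox9, Sox5 and Sox6 act together on genes of the cartilage matrix, such as collagens II, IX and XI, aggrecan, link protein and Comp.

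Read counts were given for 23100 genes, of which 15148 had enough counts to be tested. Total counts were 28079241 to 61039793 per library, and a count of 3 equals 0.0491 to 0.107 CPM, the count scaled to a common library total. At day 2 the depth followed the set, with 61039793 and 55936798 counts in the wildtype and mutant lines of set L and 35487131 and 28079241 in those of set I. Libraries of the same genotype and day differed between sets by 34.1 to 73.1 times the variance of counting error, so none was a copy of another. Fibroblast markers summed to between 24348 and 70348 CPM in every library. Plagl1 (NCBI gene 22634), the imprinted zinc finger gene also called Zac1, read 44.9 to 232.2 CPM in the wildtype line of set I and 9.09 to 61.4 CPM in its mutant line. It read 37.5 to 205.8 CPM in the wildtype line of set L and 7.68 to 55.2 CPM in its mutant line. Mutant libraries were thus below the wildtype libraries of the same day and set on each day in both sets. Plagl1 did not pass the test between sets (log2 difference -0.16, SE 0.10, adjusted p = 0.526, edgeR).

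Over all days, set L had more RNA of cartilage genes such as Comp, Hapln1 and Sox9, and less of Lrrc15, Crabp1, Thy1 and Des, than set I. With genotype and day as terms, edgeR's quasi-likelihood test called 666 of 15148 genes at an adjusted p under 0.05 (4.40%), 287 higher in L (1.89%) and 379 lower (2.50%). With a correction for transcript GC content in each library, chosen after seeing the data, 507 genes were called higher and 437 lower. The median change of the called genes was 1.46-fold, and 121 exceeded 2-fold. The unadjusted p was under 0.05 for 2400 genes, where 757 would have it if no gene differed and all genes were independent. For comparison, the same fit called 6 genes for genotype over all days (0.0396%), with 679 genes at an unadjusted p under 0.05.

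These p-values count the 4 harvests of a line as independent, although they are repeats. With harvests of days 8, 10 and 12 summed per line, which leaves 2 residual degrees of freedom, 204 of 15740 genes were called for the mean of both states (1.30%), 92 higher (0.584%) and 112 lower (0.712%). Of these 204 genes, 176 were also among the 666 and lay on the same side. With 2 lines a set, the smallest two-sided p of an exact permutation test is 0.333, so every call rests on the spread shared across genes. The count of 666 fell to 211, 265 and 298 without day 8, day 10 or day 12, and to 386 without the wildtype line of set L. It was 1193 without day 2. Of the 666 genes, 163 were called again without the L wildtype line and 278 without the I mutant line. Without the I wildtype line 288 were called again, and without the L mutant line 415. With any 1 line left out, the set term rests on the L and I lines of the other genotype alone. Such a fit thus compares 1 line against 1 line and is no check apart from the genotype pairs below.

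Of the 666 called genes, 398 had the L library on the same side of the I library in all 8 genotype and day pairs, 169 higher and 229 lower. Among all tested genes, 306 (2.02%) were higher in L in all 8 pairs and 358 (2.36%) were lower. A stricter count took genes that were called over all days, called in the wildtype pair of lines and in the mutant pair, called with summed harvests, and on the same side in all 8 pairs. It held 83 genes, 35 higher and 48 lower in set L, which is 12.5% of the 666. These conditions share libraries and are not independent of each other.

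Comp (NCBI gene 12845), cartilage oligomeric matrix protein, was measured at 0.912, 19.8, 30.9 and 40.3 CPM at days 2, 8, 10 and 12 in the wildtype line of set I. It read 0.727, 29.0, 57.0 and 106.7 CPM in the mutant line of set I. In set L it read 1.62, 40.5, 76.1 and 124.1 CPM in the wildtype line and 2.56, 65.8, 179.3 and 204.6 CPM in the mutant line. On each day both L lines were above both I lines. The fitted difference was 2.43-fold (log2 1.28, SE 0.11, adjusted p = 2.1e-05, edgeR), and it was 1.28 in the wildtype pair and 1.29 in the mutant pair.

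Hapln1, the link protein that ties aggrecan to hyaluronan, read 2.00, 5.47, 8.34 and 9.37 CPM in the I wildtype line and 2.47, 13.3, 13.2 and 16.8 CPM in the I mutant line. It read 2.83, 22.7, 33.8 and 47.5 CPM in the L wildtype line and 3.39, 48.1, 73.7 and 88.8 CPM in the L mutant line. The sets lay close together at day 2 and did not overlap on any day. Hapln1 was 3.73-fold higher over all days (log2 1.90, SE 0.22, adjusted p = 0.000378, edgeR).

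Sox9, the master regulator of cartilage cells, read 14.8, 26.3, 32.5 and 25.1 CPM in the I wildtype line and 14.6, 29.0, 34.7 and 35.3 CPM in the I mutant line. The L wildtype line had 21.6, 38.3, 46.5 and 52.3 CPM and the L mutant line 27.6, 47.5, 74.2 and 55.7 CPM. Both L lines were above both I lines on each day, and the fitted log2 difference was 0.76 (SE 0.07, adjusted p = 4e-05, edgeR).

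**Figure D1:**
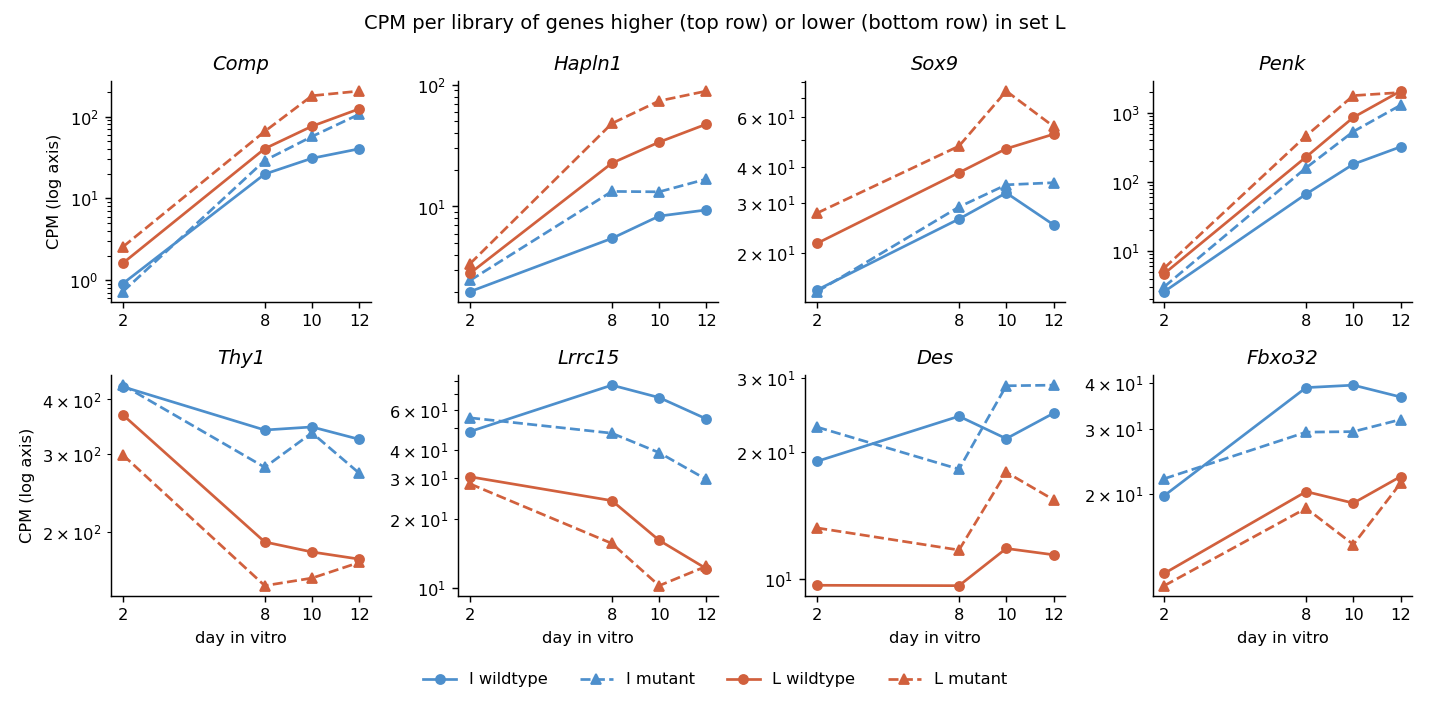
CPM (log axis) by day in vitro of Comp, Hapln1, Sox9 and Penk (top row) and Thy1, Lrrc15, Des and Fbxo32 (bottom row), 1 point per library, with blue for set I, red for set L, circles for wildtype and triangles for mutant lines. The L lines lie above the I lines of the same genotype and day in the top row and below them in the bottom row on each day, as for Comp with 1.62 and 2.56 CPM in L against 0.912 and 0.727 CPM in I at day 2.

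Over all days the cartilage list moved together, as 15 of its 16 tested members had a positive fitted difference. Of the 16, 9 were called higher (1.89% of all tested genes were) and 0 lower, and 8 members were higher in all 8 pairs. The median log2 difference of the tested members was 1.52, against 0.01 over all tested genes. With a filter of 1 CPM in 8 libraries, the list's median was 1.27, with 8 members called higher and 0 lower. That filter called 269 of all 12440 tested genes higher. The partners Sox5 and Sox6 were higher by 0.81 (SE 0.10, adjusted p = 0.000184, edgeR) and by 0.61 (SE 0.11, adjusted p = 0.00324, edgeR) on the log2 scale. Col11a1, a chain of the fibrillar collagen of cartilage, averaged 2036 CPM in L and 1305 CPM in I (log2 difference 0.55, adjusted p = 0.000505, edgeR).

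The mutant line of set L had the highest values of several cartilage matrix genes. Col9a3, a chain of collagen IX, read 1.06 to 4.62 CPM in the L wildtype line and 1.18 to 20.4 CPM in the L mutant line, against 0.471 to 2.06 CPM in set I. Epyc, a small proteoglycan of growth cartilage, reached 14.8 CPM in the L wildtype line and 74.9 CPM in the L mutant line, and at most 7.01 CPM in set I. Lect1, the chondromodulin gene now called Cnmd, had 0 counts in all 4 libraries of day 2 and reached 10.7 and 38.8 CPM in the L wildtype and mutant lines, with at most 0.686 CPM in set I. All 3 were called over all days (adjusted p = 0.00721 for Col9a3, 0.00443 for Epyc and 0.00565 for Lect1, edgeR).

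Acan, which encodes aggrecan, and Col2a1, the main collagen of cartilage, were not called (adjusted p = 0.126 and 0.139, edgeR). Acan read 62.0 CPM in the L mutant line at day 12, 9.04 CPM in the L wildtype line and 1.75 and 1.65 CPM in the I wildtype and mutant lines. The L library was above the I library in 8 of 8 pairs for Acan and in 6 of 8 for Col2a1. The median over the list was 0.68 in the wildtype pair and 2.04 in the mutant pair. The test of this difference between genotypes called 2 of the 16 members, both with a higher value in the mutant pair (0.370% of all tested genes were), among them Epyc (1.75, adjusted p = 0.0287, edgeR). Without the L mutant line the fit called 10 cartilage genes higher and 1 lower, with a list median of 0.73. There the set term rests on the wildtype lines alone. With harvests summed per line, 6 of 15 tested members were called higher and 0 lower.

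**Figure D2:**
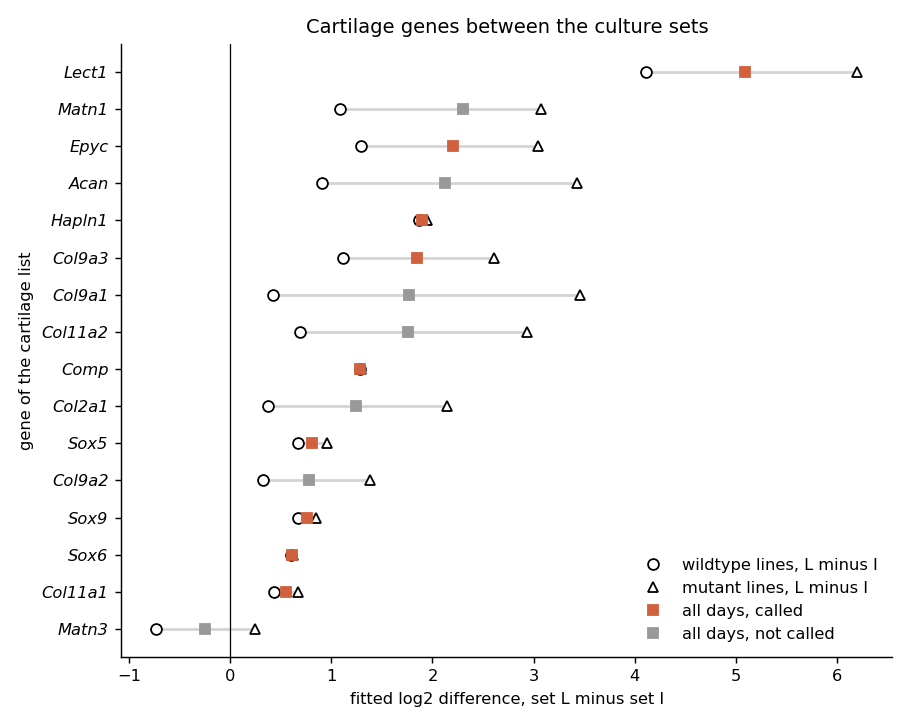
Fitted log2 difference, set L minus set I, of the 16 tested genes of the cartilage list, with circles for the wildtype lines, triangles for the mutant lines and squares for all days (red where called, grey where not). Comp and Hapln1 differ alike in both genotypes, while Epyc lies at 1.29 in the wildtype and 3.04 in the mutant lines, and Matn3 is the single gene with a negative value over all days (-0.25).

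Promoter stretches of 4 called cartilage genes are shown because these genes moved together and the list holds the SOX factors. They are the 250 bases before the annotated start, from RefSeq on GRCm38.p6, written 5′ to 3′ on the gene's strand. The hexamers ACAAAG and ACAATG, core letters of SOX binding, were searched on both strands and are in capitals where found.
Sox5 (chr6:143947107-143947356, minus strand): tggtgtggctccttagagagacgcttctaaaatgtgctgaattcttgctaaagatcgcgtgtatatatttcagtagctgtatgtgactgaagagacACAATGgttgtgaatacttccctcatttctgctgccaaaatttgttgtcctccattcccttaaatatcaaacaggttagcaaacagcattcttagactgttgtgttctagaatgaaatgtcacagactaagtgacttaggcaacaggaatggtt
Epyc (chr10:97643818-97644067, plus strand): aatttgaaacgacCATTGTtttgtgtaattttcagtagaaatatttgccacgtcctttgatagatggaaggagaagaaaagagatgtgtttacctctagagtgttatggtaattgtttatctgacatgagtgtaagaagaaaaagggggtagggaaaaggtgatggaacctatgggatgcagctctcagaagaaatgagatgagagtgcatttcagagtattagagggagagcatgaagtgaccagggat
Hapln1 (chr13:89540386-89540635, plus strand): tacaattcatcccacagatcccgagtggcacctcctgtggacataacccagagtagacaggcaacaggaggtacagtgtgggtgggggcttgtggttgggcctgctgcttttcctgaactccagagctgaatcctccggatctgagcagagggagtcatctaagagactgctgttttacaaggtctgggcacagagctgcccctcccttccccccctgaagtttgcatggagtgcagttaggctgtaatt
Col11a1 (chr3:114030290-114030539, plus strand): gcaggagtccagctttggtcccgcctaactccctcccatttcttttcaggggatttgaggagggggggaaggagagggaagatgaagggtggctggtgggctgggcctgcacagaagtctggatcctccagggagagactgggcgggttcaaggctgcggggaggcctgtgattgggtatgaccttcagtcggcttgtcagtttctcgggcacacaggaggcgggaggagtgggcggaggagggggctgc
A hexamer occurred in the stretches shown of Sox5 and Epyc and not in those of Hapln1 and Col11a1. Of the 9 called cartilage genes, 6 had an entry and 3 of these (Sox5, Sox6 and Epyc) held a match in at least 1 stretch, Sox6 with 6 stretches and Epyc with 2. Counted the same way, 28.2% of 27025 genes held a match in at least 1 stretch, and 25.2% of 32817 single stretches did. Comp, Sox9 and Col9a3 had no entry.

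Genes beyond the cartilage list were also higher in set L. Hapln1, Col9a3 and Comp of the 12 named next belong to that list. Among called genes that averaged at least 5 CPM in 1 set and lay on the same side in all 8 pairs, the 12 that led were Cilp2, Hapln1, Col9a3, B4galnt2, Penk, Prg4, Chdh, Comp, S100b, Cacna2d3, Rpl39l and Aqp1, with fitted differences of 4.59-fold for Cilp2 down to 2.04-fold for Aqp1. Cilp2, a matrix protein of cartilage, had 0 counts in both I libraries of day 2 and 0.135 and 0.221 CPM in L, and it reached 13.2 CPM in set I and 43.1 CPM in set L. Penk, the precursor of the enkephalin peptides, read 2.59 and 3.05 CPM at day 2 and 322.1 and 1291 CPM at day 12 in the wildtype and mutant lines of set I, and 4.72 and 5.69 CPM at day 2 and 2064 and 1967 CPM at day 12 in set L. Prg4, the lubricating proteoglycan of joints, was 2.98-fold higher (adjusted p = 4.4e-05, edgeR). S100b, a calcium-binding protein of glia and cartilage cells, was 2.34-fold higher (adjusted p = 0.000736, edgeR). Chdh, which makes betaine from choline, differed between genotypes in its set difference (2.28 in the wildtype and 0.92 in the mutant pair, difference -1.36, adjusted p = 0.00118, edgeR). Summed per line, Hapln1, B4galnt2, Comp and S100b were called among these 12, with adjusted p (edgeR) of 0.000782, 0.0346, 0.00652 and 0.026.

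Among genes that averaged at least 5 CPM in 1 set and lay on the same side in all 8 pairs, the 12 called genes with the largest reductions were Dgkk, Lrrc15, Crabp1, Mdk, Adam33, Hecw1, Crmp1, Pgm5, Itga4, Flt1, Olr1 and Gap43, from 2.94-fold for Dgkk to 2.08-fold for Gap43. Crabp1 encodes a retinoid-binding protein, Mdk the growth factor midkine, Gap43 a protein of growing axons, and Flt1 a receptor for vascular endothelial growth factor. Lrrc15, a membrane protein of activated fibroblasts, read 48.1, 76.7, 67.7 and 54.6 CPM in the I wildtype line and 55.2, 47.3, 38.9 and 29.7 CPM in the I mutant line. It read 30.5, 24.0, 16.1 and 12.1 CPM in the L wildtype line and 28.4, 15.6, 10.2 and 12.4 CPM in the L mutant line. The highest L value of each day lay below the lowest I value of that day (log2 difference -1.55, SE 0.17, adjusted p = 0.00019, edgeR). Crabp1 read 138.2 and 87.4 CPM at day 2 and 40.8 and 27.8 CPM at day 12 in set I, and 81.5 and 76.4 CPM at day 2 and 9.94 and 6.74 CPM at day 12 in set L (log2 difference -1.48, adjusted p = 0.00116, edgeR). Of the 12, 11 were called with summed harvests as well, the exception being Itga4, the integrin alpha 4 gene (adjusted p = 0.116, edgeR).

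Thy1, a surface protein of fibroblasts, was lower in set L. It read 427.5, 340.9, 346.4 and 324.7 CPM in the I wildtype line and 431.1, 280.5, 335.9 and 271.9 CPM in the I mutant line. The L wildtype line read 368.9, 189.8, 180.1 and 173.5 CPM and the L mutant line 299.1, 151.0, 157.1 and 170.5 CPM. No L value reached an I value of the same day, and the log2 difference was -0.76 (SE 0.08, adjusted p = 4.4e-05, edgeR). Of the 15 fibroblast markers tested, 3 were called higher, among them Pdgfra (0.43) and the proteoglycan lumican, Lum (0.55), and 3 lower, among them Thy1 and the protease Fap (-0.67). The list's median was 0.06.

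Other matrix lists were split between directions, and over all tested genes 1.89% were called higher and 2.50% lower. Of 28 proteoglycan genes 7 were called higher and 1 lower, with a median of 0.19. Omd, osteomodulin, averaged 35.9 CPM in L and 12.7 CPM in I (log2 1.39, adjusted p = 0.000847, edgeR), while Gpc3, a glypican of the cell surface, was lower by -0.53 (adjusted p = 0.0147, edgeR). Of 20 collagens outside the fibrillar group 1 was called higher and 6 lower, with a median of -0.14. Col14a1, which coats collagen fibrils, averaged 32.1 CPM in L and 66.6 CPM in I, and Col25a1, a membrane collagen, 0.519 CPM in L and 2.13 CPM in I (adjusted p = 0.0086 and 0.000949, edgeR). Of 36 matrix glycoproteins 4 were called higher and 6 lower (median -0.06). Mfap5, a microfibril protein, was lower by -0.52 (adjusted p = 0.000184, edgeR) and Ltbp1, which holds latent TGF-beta in the matrix, higher by 0.32 (adjusted p = 0.00213, edgeR). The tested proteases and inhibitors had 2 genes higher and 3 lower of 29, with Adamts2, which trims procollagens, at -0.79 (adjusted p = 0.00163, edgeR). Of 11 fibrillar collagens, 1 was called higher (Col11a1) and 1 lower (Col5a3, log2 -0.73).

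Markers of other cell types were measured in the same way, and their counts stand beside 1.89% of all tested genes called higher and 2.50% lower. Of 13 skeletal muscle markers 11 had a negative fitted difference and 2 were called lower (2.50% of all tested genes were), with a median of -0.38. The median was -1.16 in the wildtype pair, with 13 of 13 negative, and 0.09 in the mutant pair, with 6 of 13 negative. It was 0.09 without either wildtype line, -1.08 without the I mutant line and -1.41 without the L mutant line. With 1 line left out the set term rests on the other genotype's pair, so these values restate the pairs. Des, the muscle intermediate filament desmin, read 18.2 to 28.8 CPM in set I and 9.63 to 17.9 CPM in set L (log2 -0.92, adjusted p = 4e-05, edgeR), so that no L library reached an I library. Acta1, skeletal actin, was lower in L by -0.38 (adjusted p = 0.0342, edgeR). The summed muscle markers of day 2 were 302.9 and 297.1 CPM in set I and 214.6 and 153.4 CPM in set L, and Myf5 and Ckm had 0 counts in all 16 libraries. Of 9 mesothelial markers 7 were negative and 3 were called lower, with a median of -0.59. In the wildtype pair 4 were called lower and in the mutant pair 0. The median was -0.34 and -0.33 without the I and L wildtype lines, and -1.0 and -0.97 without the I and L mutant lines. These values again rest on 1 pair of lines each. The 3 mesothelial markers called lower over all days were Upk1b, Upk3b and Lrrn4 (log2 -0.83, -0.91 and -1.07, adjusted p = 0.00162, 0.0147 and 0.00654, edgeR). The summed level of the mesothelial list ran from 120.5 to 156.3 CPM in L and from 127.6 to 161.5 CPM in I and so overlapped. Of 9 endothelial markers 1 was called higher (Erg, 0.68) and 2 lower (Flt1 and Emcn, -1.15 and -1.34), with Tie1, Sox17 and Robo4 at 0 counts in all libraries. Of 14 neural and glial markers 2 were called higher, among them S100b, and 2 lower, with a median of -0.32, and 4 were positive over all days and 8 at day 2. In bulk cultures fewer cells of a type and less RNA per cell cannot be told apart.

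Macrophage and blood markers followed the line and not the set. Their summed level was 42.2 to 110.4 CPM at days 8 to 12 in the I wildtype line, 258.9 to 650.2 CPM in the I mutant line, 159.2 to 354.6 CPM in the L wildtype line and 18.0 to 96.1 CPM in the L mutant line. Between sets 0 of the 19 tested members were called by edgeR, DESeq2 or limma-voom and 0 had an unadjusted p under 0.05, although all 19 had a negative fitted difference over all days (median -0.64). The median was 1.99 in the wildtype pair and -3.42 in the mutant pair. The test of the set difference by genotype called all 19 members with a lower value in the mutant pair (1.97% of all tested genes were called in that direction). Cd68, a lysosomal protein of macrophages, read 3.56 to 6.42 CPM in I wildtype, 7.96 to 26.7 CPM in I mutant, 4.50 to 11.8 CPM in L wildtype and 1.73 to 7.57 CPM in L mutant (adjusted p = 1.03e-05 for the difference by genotype, edgeR).

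Over all tested genes this difference by genotype was called for 354 (2.34%), 298 of them with a lower set difference in the mutant pair and 56 with a higher one (0.370%). Each such value compares single lines, so line and genotype cannot be told apart. The wildtype pair alone gave 631 calls (4.17%) and the mutant pair 587 (3.88%), and 225 genes were called in both. Of those 225, 137 went the same way, which is 21.7% of the first list and 23.3% of the second, and 88 went opposite ways, 86 of them higher in L among wildtype lines and lower among mutant lines. Across genes, the 2 pairs, which share no library, had a Pearson correlation of -0.08 and a Spearman correlation of 0.23 over 15148 genes, which are not independent replicates. Of the 666 genes called over all days, 18 also had a set difference that differed between the pairs. Of the same 666, 137 were called in both pairs, 211 in the wildtype pair alone, 124 in the mutant pair alone and 194 in neither.

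**Figure D3:**
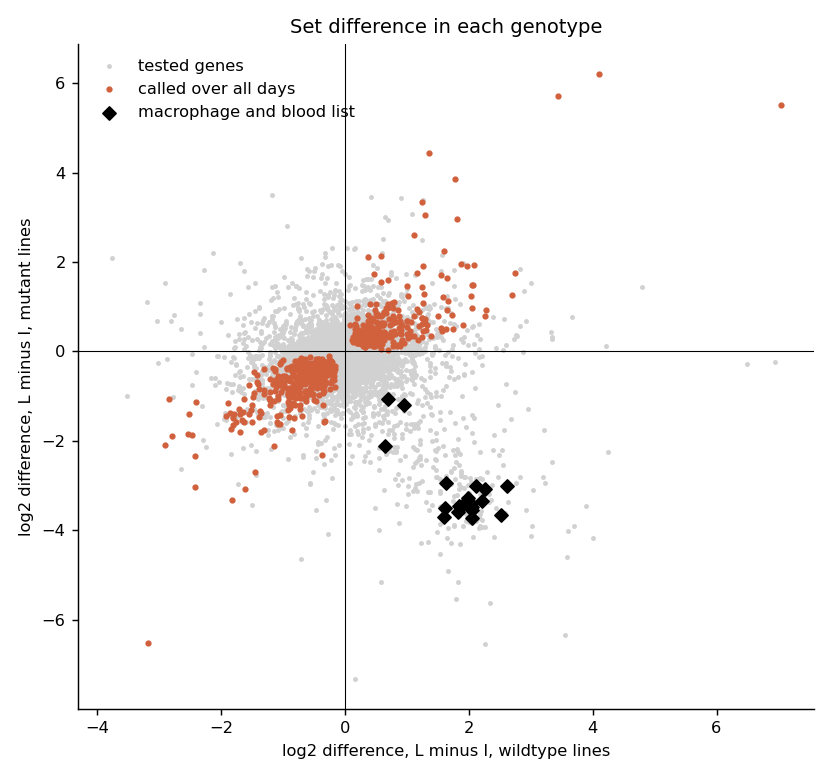
Fitted log2 difference, set L minus set I, in the wildtype lines (horizontal) and in the mutant lines (vertical) for the 15148 tested genes, with genes called over all days in red and the macrophage and blood list as black diamonds. The called genes lie in the quadrants where both pairs agree in sign, which the call over all days itself favours. Over all 15148 genes, 60% had the same sign in both pairs. The macrophage markers lie higher in L among wildtype lines (median 1.99) and lower among mutant lines (median -3.42).

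**Figure D4:**
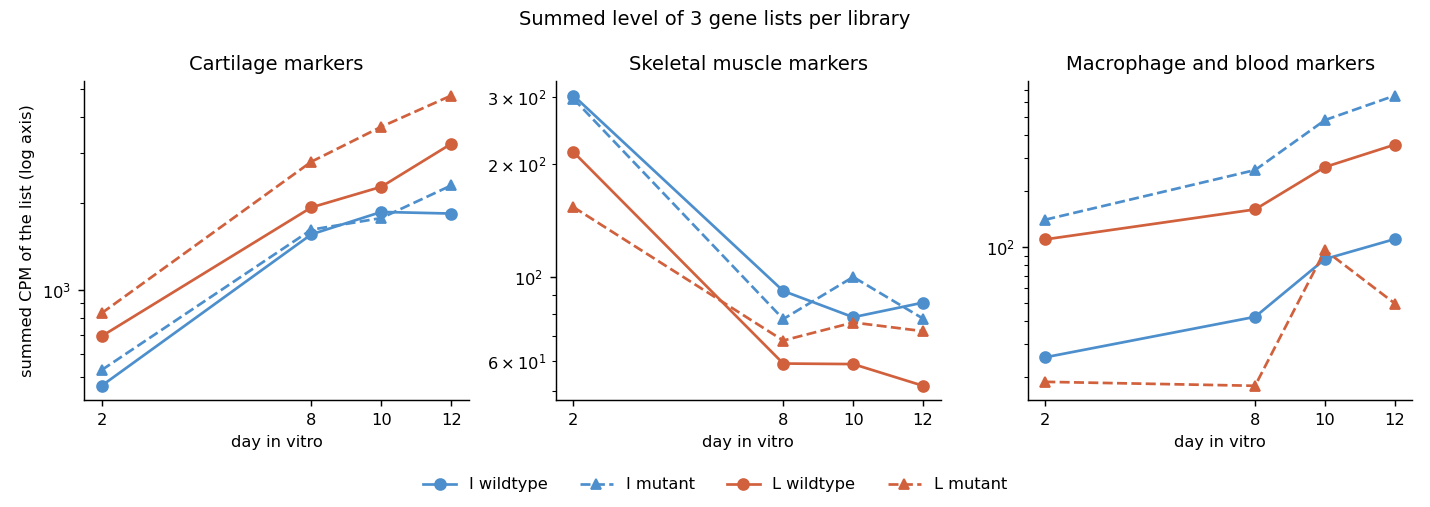
Summed CPM (log axis) of the cartilage, skeletal muscle and macrophage and blood lists by day in vitro, 1 point per library, colours for sets and symbols for genotypes. Cartilage sums of set L lie above those of set I on each day, muscle sums of day 2 lie at 153.4 and 214.6 CPM in L and 297.1 and 302.9 CPM in I, and macrophage sums order the lines as I mutant, L wildtype, then I wildtype and L mutant.

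The position of the lines on the body axis and the sex chromosomes were examined with further lists. Of 12 posterior Hox genes, which mark the trunk end and limb, 1 was called higher (Hoxa9, 0.50, adjusted p = 0.0446, edgeR), and 0 of 21 anterior and middle Hox genes were called by edgeR (6 at an unadjusted p under 0.05, 0 by DESeq2, 3 by limma-voom). At day 2, 17 of these 21 had a positive fitted difference (median 0.18), and at days 8 to 12, 18 were negative (median -0.34) and 4 were called lower (5.24% of all tested genes were). With harvests summed per line 0 of the 21 were called in either state. The median of the posterior genes was 0.74 in the wildtype pair and -0.30 in the mutant pair. Of 29 limb and trunk position factors 2 were called lower, En1 (-0.89) and Pax3 (-1.63), a factor of muscle precursors that read 0.110 to 0.737 CPM in L and 0.417 to 1.49 CPM in I. Every library held both Xist, the RNA of the inactive X chromosome (169.1 to 1062 CPM), and Y-linked genes, such as Ddx3y at 11.1 to 121.1 CPM. At days 8 to 12 Ddx3y was highest in the L mutant line (80.6 to 121.1 CPM) and lowest in the I mutant line (11.1 to 23.4 CPM), and Xist ran the other way (169.1 to 347.1 and 726.3 to 1062 CPM). Between sets 0 of the 10 sex chromosome genes were called by edgeR or DESeq2 and 0 had an unadjusted p under 0.05. For 7 of them the set difference was called different between the mutant and the wildtype pair, which compares single lines and not the genotypes. The part of the mix of embryos in other differences was not tested.

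Lists of imprinted, growth factor, defence and signalling genes are read against 1.89% of all tested genes called higher and 2.50% lower. Of 56 imprinted genes 2 were called higher and 1 lower, with a median of -0.03, a share close to that of all genes (4.40% in both directions), and the members named here are single genes. Mest, an imprinted gene of mesoderm expressed from the paternal copy, read 12.2 to 15.9 CPM at day 2 in all 4 lines. At days 8 to 12 it read 290.3 to 500.3 CPM in set I and 505.3 to 1029 CPM in set L (log2 0.70 over all days, adjusted p = 0.0015, edgeR). H19 was higher by 0.58 (adjusted p = 0.0057, edgeR) and Tfpi2, a protease inhibitor, lower by -1.68 (adjusted p = 0.000316, edgeR). Igf2, which shares its locus with H19, was 0.27 higher, in 8 of 8 pairs, and did not pass (adjusted p = 0.0595, edgeR). In the insulin-like growth factor axis 1 of 21 genes was called higher and 2 lower. Igfbp4 was higher by 0.38, and Igfbp3 and Pappa, the protease that cuts Igfbp4, were lower by -0.68 and -0.51 (adjusted p = 0.0031, 0.0105 and 0.00462, edgeR).

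Beside the same shares of all genes (1.89% higher and 2.50% lower), of 36 interferon response genes 34 had a negative fitted difference and 3 were called lower, Oasl2 (-0.97), Parp14 (-0.46) and Trim25 (-0.33), while Ifi27l1 was called higher (0.32), and the median was -0.20. With harvests summed per line 28 of the 36 were negative and 1 was called lower. Of 27 chemokine and cytokine genes 1 was called higher and 4 lower, among them Ccl7 (-0.77, adjusted p = 0.00185, edgeR), Ccl2 (-0.77) and Il6 (-0.87). The calls of the pairs went opposite ways, with 5 higher and 0 lower in the wildtype pair and 0 higher and 5 lower in the mutant pair. Of all 27 members, 14 were negative in the wildtype pair and 20 in the mutant pair. By genotype 6 were called with a lower set difference in the mutant pair (1.97% of all tested genes were). The list median was -0.15, and it was -0.51 and -0.54 without the I and L wildtype lines. Without the I and L mutant lines it was -0.04 and -0.03. Each of these values rests on 1 pair of lines. Of 15 complement genes 4 were called, with 2 higher, among them C1ra (0.49), and 2 lower, C2 (-0.91) and the C1 inhibitor Serping1 (-0.70, adjusted p = 0.000402, edgeR). Of 30 Wnt pathway genes 1 was called higher, Wnt10b (0.63), and 3 lower, the inhibitors Nkd2 (-1.42, adjusted p = 0.000194, edgeR) and Dkk2 (-0.79) and the antagonist Sfrp1 (-0.46). The lists of S phase, G2/M, ribosomal protein, oxidative phosphorylation, housekeeping, heat shock, integrated stress response, circadian clock, clustered histone, antigen presentation and pericyte genes are grouped because edgeR called none of their members over all days. They hold 234 tested entries in 11 lists. The grouping itself fixed this absence of calls, so it is not read against the 4.40% of all genes called. Of these entries 15 had an unadjusted p under 0.05, DESeq2 called 4 and limma-voom 8. The 8 tested pericyte markers held 3 of the 15, 3 of the 4 DESeq2 calls and 4 of the 8 limma-voom calls, and at days 8 to 12 edgeR called 3 of them lower. At days 8 to 12 edgeR also called 2 housekeeping, 2 integrated stress response, 1 G2/M and 1 circadian clock gene higher. It called 2 antigen presentation genes and 1 integrated stress response gene lower. Over all tested genes 3.92% were called higher at these days and 5.24% lower. The medians of the 11 lists over all days lay between -0.22 (pericyte markers) and 0.09 (integrated stress response genes).

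At day 2, set L differed from set I in few genes by the shared fit. The test called 10 of 15148 genes (0.0660%), 8 higher (0.0528%) and 2 lower (0.0132%), and 2352 genes had an unadjusted p under 0.05. With RLE scaling in place of TMM, 3 genes were called higher and 0 lower. Prelp, a proteoglycan that anchors basement membranes, read 9.68 and 15.1 CPM in the L wildtype and mutant lines and 3.33 and 4.14 CPM in the I lines (log2 1.71, SE 0.18, adjusted p = 0.00104, edgeR). Itga3, the integrin alpha 3 gene, read 148.0 and 162.7 CPM in L and 79.2 and 88.4 CPM in I (log2 0.89, SE 0.10, adjusted p = 0.00104, edgeR). Sod3, Cd34, Nfix, Gpc1 and Nacc2 were higher by 1.02, 0.97, 0.80, 0.67 and 0.58 on the log2 scale. Fbxo32, a ubiquitin ligase of muscle wasting, read 12.2 and 11.3 CPM in L and at least 19.8 CPM in both I lines (log2 -0.83, adjusted p = 0.0466, edgeR), and Pmaip1, a death gene under p53, was lower by -0.58 (adjusted p = 0.0466, edgeR). With a correction for transcript GC content 0 genes were called lower at day 2, so neither of these 2 was called. Of the cartilage list, 13 of 16 members had a positive fitted difference at day 2 (median 0.71), and 0 were called. With sums per line 4 of 15 were called higher (4.73% of all tested genes were called), and 0 once the GC correction was added.

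The count at day 2 depended on the unit, the tool and the libraries. It was 745 of 15740 genes (4.73%) with sums per line, 807 with the 4 libraries of day 2 and no others, 297 with DESeq2, 166 without day 10 and 1 against a fold change of 1.5. It was 2 without the I mutant line, 5 without the L wildtype line, 23 without the I wildtype line, 34 without the L mutant line, 3 without day 8 and 4 without day 12. All 10 genes were among the 745. The day 2 difference also followed the base composition of transcripts, with a Spearman correlation across 14395 genes of 0.47 between the fitted difference and GC content. The median log2 difference was 0.23 in the fifth of genes richest in GC and -0.19 in the poorest, and within the day the correlation was 0.38 in the wildtype pair and 0.48 in the mutant pair. At later days it ran from -0.45 (mutant pair, day 12) to 0.11 (wildtype pair, day 10). With a correction for GC content in each library, 22 genes were called at day 2 with sums per line in place of 745 (15 higher and 7 lower, against 370 and 375), and 7 in place of 10 (7 higher and 0 lower). Of these 7 genes, 4 were among the 10. GC content, depth and set moved together at day 2, and their parts cannot be told apart.

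**Figure D5:**
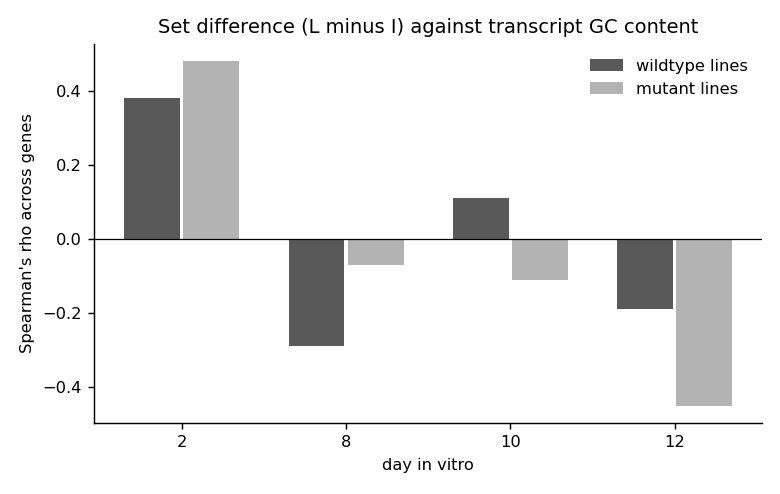
Spearman's rho across 14395 genes between the set difference (L minus I, log2 CPM) and transcript GC content, for each day in vitro, with dark bars for the wildtype and light bars for the mutant lines. Both bars are positive at day 2 (0.38 and 0.48), and at days 8 to 12 they lie between -0.45 and 0.11.

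At days 8 to 12, the shared fit called more genes than at day 2, over 12 libraries against 4. With lines as the unit the order turned, with 745 genes called at day 2 and 173 at days 8 to 12. The shared fit called 1387 of 15148 (9.16%), 594 higher (3.92%) and 793 lower (5.24%), with 3737 at an unadjusted p under 0.05. With the GC correction the split was 1038 higher and 717 lower. Lect1, Stk32b, Epyc, Hapln1, Cilp2, Col9a3, Penk and Reln led the higher genes, with log2 differences from 5.10 to 1.77. Reln, the secreted guide of neuron migration, read 0.692 to 18.1 CPM in L and 0.488 to 2.80 CPM in I at these days. Tnn, Crabp1, Lrrc15, Mdk, Adam33, Col15a1, Syt13 and Crmp1 led the lower genes, from -2.88 to -1.44. Tnn, tenascin N, read 0.349 to 1.44 CPM in set L and 2.23 to 13.5 CPM in set I (adjusted p = 0.00605, edgeR). Hapln1 differed by 2.19 (SE 0.09, adjusted p = 3.7e-09, edgeR) and Lrrc15 by -1.78 (SE 0.10, adjusted p = 3.04e-07, edgeR). Of the cartilage list, 9 of 16 members were called higher and 0 lower, with a median of 1.63. Of 30 Wnt pathway genes 10 were called lower and 1 higher.

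With sums per line, 173 of 15740 genes were called at days 8 to 12 (1.10%), 59 higher (0.375%) and 114 lower (0.724%), and all 173 were among the 1387 with the same direction. The count of 1387 was 578 without day 8, 403 without day 12, 652 without the L wildtype line and 831 without the I mutant line. Of the 1387 genes, 346 were called again without the L wildtype line and 522 without the I mutant line. Without the I wildtype line 561 were called again, and without the L mutant line 688. Of the 10 genes called at day 2, 5 were called at days 8 to 12 with the same sign.

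The set difference itself changed between day 2 and days 8 to 12 for 183 genes (1.21%), 71 with a higher value later (0.469%) and 112 with a lower one (0.739%), with 3390 at an unadjusted p under 0.05. With upper quartile scaling the split was 131 and 135. Hapln1 had a larger difference later (change 1.71, SE 0.22, adjusted p = 0.00381, edgeR). The zinc finger genes Zfp51, Zfp40, Zfp930 and Zfp942 had a negative fitted difference at day 2 and a positive one later (0.27 to 0.42). Zfp40, for example, read 4.11 and 3.26 CPM in L and 7.03 and 6.83 CPM in I at day 2, and 9.55 to 12.5 CPM in L and 6.15 to 10.2 CPM in I later. Nrip2, Pibf1 and Osgin2 moved the same way (changes 2.53, 1.09 and 1.00). Lgr5, a receptor that strengthens Wnt signals, read 1.85 and 1.92 CPM in L and 0.706 and 0.800 CPM in I at day 2, and 9.60 to 22.3 CPM in L and 13.6 to 47.6 CPM in I later (change -2.29, SE 0.26, adjusted p = 0.00381, edgeR). Gdf10, Tbxa2r, Tnfrsf21, Col15a1, Prelp, Syt13 and Thsd4 had changes from -3.08 to -1.53, and Gdf10 had 0 counts in 1 I library of day 2. The change between states correlated with GC content at -0.49 across genes (Spearman), and 35 genes were called with the GC correction. The count was 0 without the I mutant line (edgeR, 1540 genes at an unadjusted p under 0.05), 3 without the L wildtype line, 14 without the I wildtype line and 18 without the L mutant line. It was 21 without day 8, 5 without day 12 and 1292 without day 10.

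The share of variation that went with the set was small beside that of the day. Of the summed squares of log2 CPM over the 15148 tested genes, day took 59.9%, set 5.85%, genotype 2.95%, the combination of set and genotype 7.88% and the combination of set and day 8.39%, and 15.1% was left. The combination of set and genotype has 1 degree of freedom, as set and genotype each have, and holds what the 4 lines differ in beyond these 2 terms. Day and the combination of set and day have 3 each, and the rest has 6. Per degree of freedom, day took 20%, the combination of set and genotype 7.88% and set 5.85%. Genotype took 2.95%, the combination of set and day 2.8% and the rest 2.51%. The term for the lines beyond set and genotype was thus larger than that of the set.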

How the data were processed

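RNA was sequenced from 4 fibroblast lines harvested on 4 days, 16 libraries in all. The authors deposited raw counts, whole numbers for 23100 genes. Per the labels' protocols, stranded libraries were made from DNase-treated total RNA. The genome build was mm9, and HTSeq 0.6.1p1, Bowtie2 2.2.9, TopHat2 2.1.1 and bcl2fastq 2.18 are listed, per the submitters' processing notes. No source used here gives the strand setting or annotation behind the counts, and overlapping genes on opposite strands and near-identical copies are uncertain. No row lacked a gene name, and 0 columns belonged to other samples.

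CPM values were computed with TMM scaling. Genes kept by edgeR's filterByExpr (15148, minimum count 10) were tested in edgeR 4.0.16 (R 4.3.3) by robust quasi-likelihood, adjusted by Benjamini-Hochberg over all tested genes and called under 0.05. The fit over all days had genotype and day as terms. Day 2, days 8 to 12 and their change came from a fit with set and genotype within each state, and the wildtype pair, the mutant pair and the difference by genotype from a fit with a term for each line. In the fit by line, 3 harvests were summed per line (15740 genes). Standard errors (SE) were derived from the F statistic. Sets are labelled replicate 1 (I) and 2 (L), so the number is the set and pairs no samples across sets. Since each set has the same genotypes and days, the matched genotype and day was tried as a block. GC content was taken from GENCODE transcripts of another build (GRCm38), with a value for 95% of tested genes, and coordinates of promoters are RefSeq's on that build. The fits were tested on simulated data.

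Members and gene lists were chosen with earlier results of these data known. The lists number 45, with 1016 of 1020 entries found in the table, and erythroid markers had 0 tested genes. Named genes were, among called genes that averaged 5 CPM or more in 1 set and had no predicted name, the 12 largest differences each way over all days (same side in all 8 pairs), 8 each way for the other comparisons, up to 4 members of each list by smallest p, Plagl1 and the sex chromosome genes. Acan, Col2a1, Matn3, Sox6, Gpc3, Cd68, Igf2, Il6, C2, Col25a1, Emcn, Lrrn4, Nkd2, Pax3, Tfpi2 and Wnt10b fall outside that rule and were named after their values were seen. Intervals from counts cover counting error only. Alternatives were RLE and upper quartile scaling, other filters, DESeq2 1.42.0, limma-voom 3.58.1 with the line as a random block, a test against a 1.5-fold change, and leaving out each line or day, and GC correction and some repeats for lines and genotype pairs were chosen after seeing the data. In limma-voom the estimated correlation of harvests of a line was negative, -0.0918 over all days and -0.057 in the fit by state. Its block therefore made no allowance for repeat harvests.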

Additional observations from a re-analysis of the deposited data

Results flagged for a closer look

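Some results differed between conditions by a test of the difference itself (edgeR, adjusted p under 0.05), and are given as values. The set difference changed between day 2 and days 8 to 12 for 183 genes. Its value was higher later for Hapln1 (log2 change 1.71), Nrip2 (2.53), Zfp51 (1.46), Zfp40 (1.32), Zfp930 (1.10), Pibf1 (1.09), Zfp942 (1.07), Osgin2 (1.00) and Mest (0.85). It was lower later for the matrix genes Prelp (-1.59), Col15a1 (-1.62), Thsd4 (-1.53), Col5a3 (-0.78) and Adamts2 (-0.90). The signalling genes Gdf10 (-3.08), Lgr5 (-2.29), Tbxa2r (-1.94) and Tnfrsf21 (-1.64) did the same. So did Lrrc15 (-0.97), Crabp1 (-1.35), Sod3 (-0.71), Cd34 (-1.03), Nfix (-0.72), Syt13 (-1.55) and En1 (-1.14). Across genes the change correlated with transcript GC content (Spearman -0.49), and 35 genes were called with a GC correction.

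The set difference of the mutant pair was called different from that of the wildtype pair for 354 genes. Each set and genotype holds 1 line, so this test rests on repeat harvests, has no replicate lines and describes these 4 lines, not the genotypes. Those named above included Chdh (-1.36), Epyc (1.75), C1ra (-0.57) and Ccl2 (-0.85), where a negative value means a lower set difference in the mutant pair. All 19 tested macrophage and blood markers, Cd68 included, were among the 354, with a lower value in the mutant pair. Of the 10 sex chromosome genes, 4 were among them with a higher value and 3 with a lower one. Each line was harvested once per day, so no group of like samples was large enough to look for a sample far from the others.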

How the results depend on the processing

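For all days (666), the count was 670 with RLE scaling and 682 with the upper quartile. It was 211, 265 and 298 without days 8, 10 and 12, 1193 without day 2, 386 to 819 with each line left out, 30 against a 1.5-fold change, 204 with harvests summed per line, 206 with sums and GC correction, 1478 with limma-voom and 1078 with DESeq2. For day 2 (10), it was 3 with RLE, 4 with the upper quartile, 3, 166 and 4 without days 8, 10 and 12, and 2 to 34 with each line left out. It was 30 with the matched genotype and day as a replicate block, 807 with the libraries of day 2 alone, 1 against a 1.5-fold change, 745 with sums, 22 with sums and GC correction, 2 with limma-voom and 297 with DESeq2. For days 8 to 12 (1387), it was 578 and 403 without days 8 and 12, 652 to 1179 with each line left out, 78 against a 1.5-fold change, 173 with sums and 142 with sums and GC correction. For the change between states (183), it was 404 with a filter of 1 CPM in 8 libraries, 21, 1292 and 5 without days 8, 10 and 12, and 0 to 18 with each line left out. It was 878 with the block, 1 against a 1.5-fold change, 453 with sums, 35 with GC correction, 7 with both, 18 with limma-voom and 1445 with DESeq2. The day 2 count with lines as the unit (745) fell to 22 with GC correction, and the genes called alike in both genotype pairs rose from 137 to 282 without day 2. With a line left out, 163 to 415 of the 666 genes were called again over all days, and 346 to 688 of the 1387 at days 8 to 12. The set term of such a fit rests on the pair of lines of 1 genotype. The limma-voom count over all days does not allow for repeat harvests, as the estimated correlation within a line was negative (-0.0918). The causes of these shifts were not tested. The matched block moved the other counts to 561 (all days) and 1609 (days 8 to 12). A paired analysis of samples by replicate number was not made, because that number is the set.

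Over 124 named values and their alternatives, 0 reversed, 1804 kept their side of the threshold, 516 lost the call and 13 gained it. The named genes were mainly picked from called genes by large differences or small p. That choice itself partly fixed the count of 0 reversals, which is therefore not read as a check of direction. Each set holds 2 lines and harvests of a line are repeats, so p-values describe these lines. In the shallowest library, with 28079241 counts, a count of 3 equals 0.107 CPM, and lower levels could not be told from 0 there.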
